A study of Drosophila melanogaster with 29 samples.

Results

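HMR binding sites inside genes, in introns, exons, untranslated regions (UTRs) and a non-coding transcript, were described in S2-DRSC cells, an untreated Drosophila melanogaster line of embryonic origin. HMR peaks of 3 biological replicates were merged into 1515 sites, and 794 of these were held by at least 2 of the 3 peak lists. Of the 794 shared sites, 200 carried an annotation inside a gene and are called intragenic here, against 371 annotated as promoters and 223 annotated as gene ends or intergenic. The annotation was the one that the authors gave each site with HOMER, on genome build dm3. ChIP-Seq had been done with a rat anti-HMR antibody (3 replicates) and, as control IgG, with a mouse anti-FLAG antibody (2 replicates). All 5 samples came from the same cell line and culture conditions. The other samples of the series, among them those from cells treated with RNAi and those for HP1a and histone marks, were not analysed here.

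HMR is a chromatin protein of fruit flies that was found through its part in the death of hybrid males from crosses of D. melanogaster with D. simulans, where it acts together with LHR. It is known to associate with the heterochromatin protein HP1a near centromeres and, along the chromosome arms, with insulator proteins. Insulators are DNA elements whose bound proteins limit contacts between enhancers and promoters, and they lie between genes as well as inside long introns. The peak lists hold no expression values, so the cell line could not be checked against marker genes.

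The HMR lists of replicates 1, 2 and 3 held 1151, 903 and 781 peaks from 7190138, 11589116 and 11484450 tags. The caller's estimate of immunoprecipitation efficiency was 2.67%, 1.51% and 1.49%, and a peak needed 30, 41 and 41 tags. The control lists held 22 and 242 peaks from 8794859 and 16782808 tags, with efficiencies of 0.02% and 0.24%. Every peak carried the same score, so a list gives positions and an order but no height. The order is used here as a relative position, 0 for the first peak of a list and 1 for the last. Within chromosomes the order followed the caller's own peak number with a Spearman rho of at least 0.997 in replicate 1 and 0.973 in replicate 2, over chromosomes with enough peaks. The list of replicate 3 was renumbered and could not be checked like this. Sites are places in a genome and not replicates, so the tests below carry counting error alone and take neighbouring sites as independent.

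Introns held 179 of the 200 intragenic sites (89.5%). A 5' UTR held 8, an exon 7, a 3' UTR 5 and a non-coding transcript 1. The sites were 201 to 402 bp wide, with a median of 225 bp. None of the 200 lay on a control IgG peak, which allows a share of up to 1.5%, and the share over all shared sites was 0.378%. A single intragenic site had a control peak within 1000 bp, at a gap of 235 bp, and it lay in lncRNA:CR43461 on the X. Symbols were found for 195 sites, and the other 5 are known here by a transcript identifier alone.

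Among the sites held by all 3 lists, the earliest lay in the first of 13 introns of pyd, at chr3R:4689020-4689226. It stood at position 5 in replicate 1, 10 in replicate 2 and 3 in replicate 3. The gene encodes Polychaetoid, a scaffold protein of cell junctions. Next came a site in intron 2 of 12 of Glut1, a glucose transporter, at chr3L:968252-968476 and positions 13, 38 and 6. The earliest exonic site lay in exon 13 of 17 of tou, at chr2R:7469527-7469737, and stood at positions 18, 45 and 12. Toutatis is a chromatin regulator of the bromodomain family. These 3 sites had mean relative positions of 0.00534, 0.0193 and 0.0259, so each was among the first peaks of every list.

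The Krüppel-like transcription factor gene luna had a site in intron 2 of 4, at chr2R:6985760-6985994, that stood at positions 50, 15 and 18. A site in the first of 5 introns of Treh, at chr2R:16965905-16966123, stood at positions 12, 44 and 22. Trehalase splits trehalose, the main sugar of insect blood. The gene pnt, which encodes an ETS transcription factor downstream of the Egfr and Ras pathway, held 2 of the 10 earliest sites in its intron 3 of 8. One, at chr3R:19157079-19157288, stood at positions 9, 58 and 46, and the other, at chr3R:19152609-19152838, at positions 69, 22 and 57. The order of the pair differed between lists, since replicate 2 placed the second one earlier.

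A 5' UTR site of brat, a translational repressor that limits neuroblast growth, lay at chr2L:19166007-19166225 and stood at positions 17, 74 and 31. The first of 10 introns of toc, which encodes a microtubule-associated protein, held a site at chr2L:3131742-3131985 and positions 60, 54 and 21. Last of the 10 was a site in intron 5 of 16 of klar, at chr3L:505714-505948 and positions 29, 96 and 25. Klarsicht links the nucleus to microtubules. None of the 10 lay on the X, on chromosome 4 or within 2 Mb of a centromere-proximal arm end, and 8 of them were intronic.

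The 200 sites fell in 179 genes or transcripts, of which 161 held 1 site, 15 held 2 and 3 held 3. The 18 genes with several sites held 39 of the 200 (19.5%). By comparison, 12 of 359 genes with a promoter site held more than 1, with 24 of the 371 promoter sites (6.47%). Neither gene length nor the shorter stretch that a promoter annotation covers was taken into account, so the 2 shares are not on equal terms. In 11 genes at least 2 sites lay in the same intron. The 21 gaps between neighbouring sites of a gene ran from 251 bp in Dbx to 50.9 kb in luna, from edge to edge, with a median of 8.93 kb, and 8 were under 5 kb.

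The genes with 3 sites were luna, ush and InR. All sites of luna lay in intron 2, over 102 kb. The site described above was the earliest, a middle one at chr2R:6934598-6934840 stood at positions 841, 353 and 412, and one at chr2R:6883739-6883954 was held by replicates 1 and 3 only, at 1085 and 684. In replicates 1 and 3 the sites of luna thus stood both early and late in the list. In ush, a zinc finger cofactor of GATA factors, 3 sites over 37.3 kb stood close together in the lists. Each was annotated to the first of 7 introns, of 1 transcript for 2 of the sites and of another transcript for the site at the lowest coordinate. A site at chr2L:521700-521935 stood at positions 217, 171 and 175, one at chr2L:519465-519709 at 221, 221 and 213, and one at chr2L:484672-484911, not held by replicate 1, at 164 and 161. A promoter site and a gene end site of ush were shared by the lists as well. The insulin receptor gene InR held an exonic site at chr3R:17405889-17406104, in exon 3 of 12 and at positions 204, 226 and 231. Its sites in intron 2 were each held by 2 lists. The one at chr3R:17415147-17415391 stood at 720 and 487 in replicates 1 and 2, and the one at chr3R:17416870-17417074 at 797 and 585 in replicates 1 and 3.

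**Figure D1:**
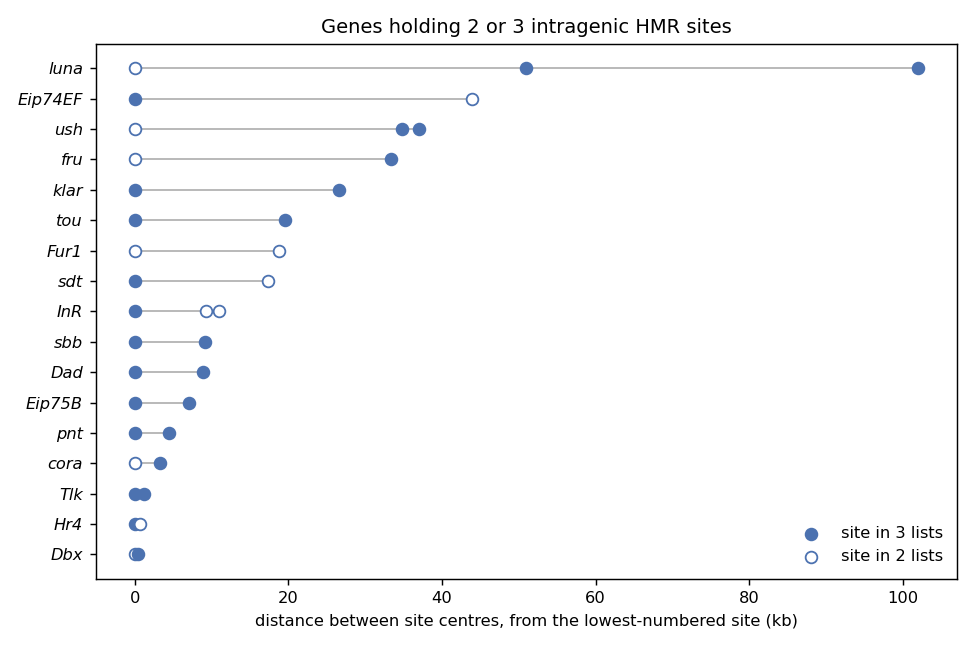
Distance in kb between the centres of intragenic HMR sites in 17 of the 18 genes with 2 or 3 sites, measured from the site with the lowest coordinate, with filled points for sites in all 3 lists and open points for sites in 2 lists. The sites of luna span 102 kb, while those of Dbx and Hr4 lie within 1 kb of each other.

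Among the 15 genes with a pair of sites, the pair of fru, a sex determination transcription factor gene, spanned 33.5 kb and that of Eip74EF, an ecdysone-induced ETS factor gene, 44.1 kb. The nuclear receptor genes Eip75B and Hr4 had pairs over 7.34 kb and 0.909 kb, the homeobox gene Dbx over 0.678 kb, and the corepressor gene sbb over 9.39 kb. Dad, the inhibitory Smad of the Dpp pathway, had a pair over 9.12 kb. In fru the site at chr3R:14333533-14333741 stood at positions 106, 151 and 35, while the other, at chr3R:14300262-14300466, was held by replicates 1 and 3 at 901 and 613. In Eip74EF one site was held by all lists at 315, 156 and 236, and the other by replicates 1 and 3 at 598 and 611.

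Both sites were in all 3 lists in tou, klar, pnt, sbb, Dad, Eip75B and Tlk, and with luna and ush this made 9 genes. Tlk encodes the Tousled-like kinase, a chromatin assembly kinase. The second tou site, in an intron at chr2R:7489056-7489272, stood at positions 323, 116 and 176, and the second klar site, at chr3L:532364-532575, at 295, 364 and 360. Pairs in cora and sdt, which encode septate junction and Crumbs complex proteins, and in Fur1, a furin-like protease gene, included sites held by 2 lists. Both Fur1 sites were held by replicates 1 and 3 only, at 978 and 533 and at 1087 and 693, late in both lists. Sites of single lists lay between the shared sites of 2 genes, 1 in ush and 1 in Eip74EF.

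Outside introns there were 21 sites, and apart from tou and brat they stood later. After the InR exon, the earliest was a 3' UTR site of Slc45-1, a gene of the SLC45 transporter family, at chr3L:9196197-9196403 and positions 188, 356 and 193. The 5' UTR site of dnc, the cAMP phosphodiesterase gene, was among the last in every list, at positions 1090, 828 and 774. Exonic sites in Dyrk2, ced-6, Uba1, raw and Sarm had mean relative positions of 0.463, 0.463, 0.501, 0.397 and 0.587, and Dyrk2, a kinase gene, was the only one of these 5 in all 3 lists. The 5' UTR sites of Rbp9, an ELAV family RNA-binding protein gene, and of CG31523 were in all 3 lists with means of 0.582 and 0.565. Those of nolo (0.445), Wdr62 (0.587), Polr1D (0.615) and sick (0.635) were in 2 lists. The 3' UTR sites of sv, a Pax gene (0.462), of shd, which encodes the ecdysone 20-monooxygenase (0.732), and of the transcript NM_001104481 (0.642) were in 2 lists, and that of CG11380 (0.802) in all 3. The non-coding transcript NR_037766 held a site in all lists with a mean of 0.598. In all, 4 of 8 sites in a 5' UTR, 3 of 7 in an exon and 2 of 5 in a 3' UTR were in all 3 lists, against 107 of 179 in introns (59.8%).

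Most intronic sites lay in the first or second intron of the annotated transcript, 119 of 179 (66.5%). Of the 179, 76 lay in the first intron (42.5%, 95% Wilson interval 35.5 to 49.8), 43 in the second and 26 in the third. Introns 4 and 5 held 11 and 13, and later introns 10. The transcripts had a median of 7 introns and up to 41, and if every intron of a transcript counted alike the first would take 20.2% of the sites. Intron length was not taken into account, and no test was made against this share. Among transcripts with at least 3 introns, 63 of 164 sites were in the first (38.4%). The share of sites in all 3 lists was 52.6% in first introns (40 of 76) and 65% in later introns (67 of 103), a difference that did not pass Fisher's exact test (two-sided p = 0.123, adjusted p = 0.168).

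**Figure D2:**
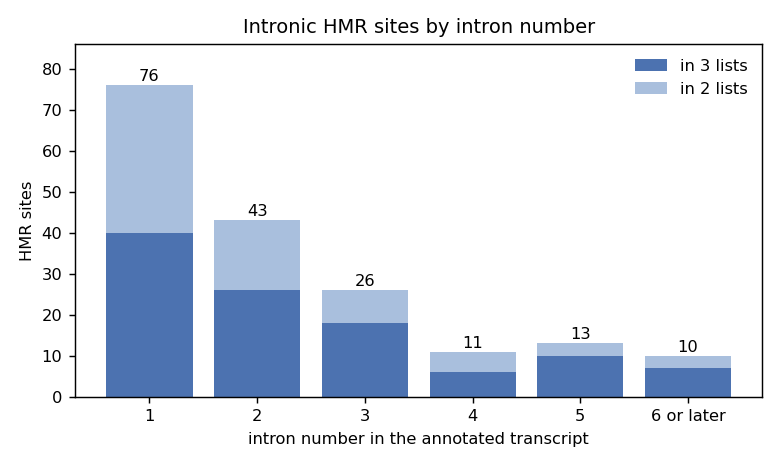
Number of intronic HMR sites by the number of the intron in the annotated transcript, with dark bars for sites in all 3 lists and light bars for sites in 2 lists. The first intron holds 76 of 179 sites and the second 43.

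Intragenic sites were held by all 3 lists less often than promoter sites. All 3 lists held 117 of the 200 (58.5%, 95% Wilson interval 51.6 to 65.1), against 66.2% of all shared sites, 68.7% of promoter sites (63.8 to 73.2) and 69.1% of gene end and intergenic sites (62.7 to 74.8). The differences were -10.2 percentage points (Fisher's exact test, p = 0.0167, adjusted p = 0.0313) and -10.6 (p = 0.0258, adjusted p = 0.0431). The adjustment included the tests of X against autosomes, which were added after their pattern had been seen and lower the adjusted values. Adjusted without those tests, the difference from promoters would stay under the threshold. That from gene ends and intergenic sites would not, so it is not firm. Promoters held more of the sites near centromeres and on chromosome 4. Without these sites the differences were -1.34 (Fisher's exact test, p = 0.843) and -7.5 (p = 0.14), and the part of these sites in the result was not tested further. When the first 50% of each list was used in place of the whole, the difference from promoters was 3.07 (Fisher's exact test, p = 0.674). Replicate 1, the longest list, held 188 of the 200 sites, replicate 2 held 161 and replicate 3 held 168. Of the 83 sites in 2 lists, 39 were in replicates 1 and 3, 32 in replicates 1 and 2, and 12 in replicates 2 and 3. Peak centres of a site lay a median of 17, 15 and 14 bp apart in the 3 pairs of lists, and at most 201 bp.

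In the list of replicate 1, intragenic sites stood later than promoter sites. Their median relative position was 0.507 (quartiles 0.25 and 0.696, n = 188 sites) against 0.307 for promoters (0.149 and 0.512, n = 358 sites), a difference of 0.2 (Wilcoxon rank-sum test, adjusted p = 1.14e-07). Replicate 2 gave medians of 0.435 (n = 161) and 0.336 (n = 309), a difference of 0.0987 (adjusted p = 0.00841), and replicate 3 gave 0.528 (n = 168) and 0.458 (n = 330), a difference of 0.0705 that did not pass (adjusted p = 0.314). Against gene end and intergenic sites the difference was 0.175 in replicate 1 (n = 219 such sites, adjusted p = 0.000197), 0.0188 in replicate 2 (n = 173, adjusted p = 0.743) and 0.115 in replicate 3 (n = 208, adjusted p = 0.0596). Without the sites of chromosome 4, the Het scaffolds and the 2 Mb next to the centromeres, the difference from promoters was 0.133 in replicate 1, which passed the same test, and 0.0305 in replicate 2 and 0.0141 in replicate 3, which did not.

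**Figure D3:**
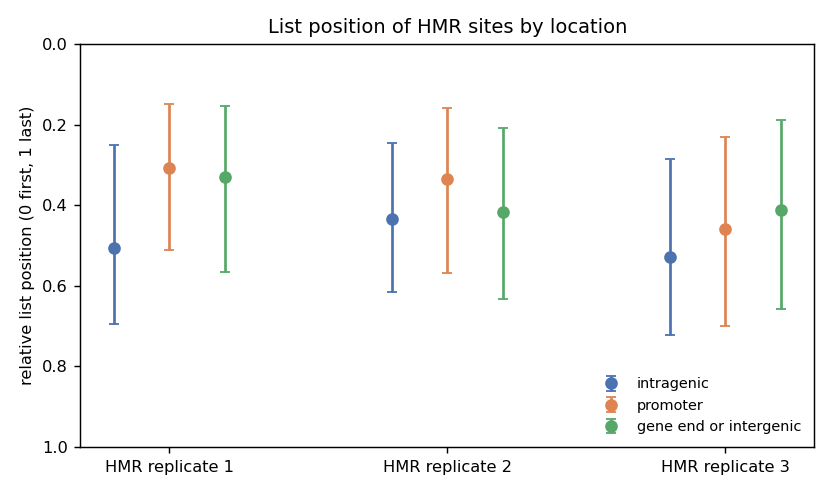
Median relative list position (0 for the first peak, 1 for the last, axis inverted) of intragenic, promoter and gene end or intergenic HMR sites in each HMR replicate, with bars from the lower to the upper quartile. The intragenic median of replicate 1, 0.507, stands below 0.307 for promoters, and the quartile ranges of all 3 kinds overlap in every list.

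Intragenic sites in all 3 lists stood earlier than those in 2 lists, as a description, with medians of 0.351, 0.39 and 0.391 against 0.644, 0.52 and 0.682 in replicates 1, 2 and 3. Sites of a single list, at any location, had medians of 0.759, 0.784 and 0.864. The positions of the same intragenic site in different lists went together, with a Spearman rho of 0.791 between replicates 1 and 2 (149 sites), 0.863 between 1 and 3 (156 sites) and 0.788 between 2 and 3 (129 sites). Sites of 1 genome share their sequence, mappability and copy number, so these are descriptions.

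Intragenic sites of the X chromosome stood late in every list. Their median relative position was 0.77 in replicate 1, 0.802 in replicate 2 and 0.759 in replicate 3. For autosomal intragenic sites it was 0.427, 0.392 and 0.463. The differences of 0.343, 0.41 and 0.296 passed the Wilcoxon rank-sum test in each list (n = 33, n = 27 and n = 27 X sites, adjusted p = 1.14e-07, 1.77e-08 and 4.5e-06), a test that was added after the pattern had been seen. The later 50% of the list held 28 of 33, 24 of 27 and 22 of 27 X sites, against 69 of 155, 38 of 134 and 64 of 141 autosomal sites. X sites at other locations stood late as well. Promoter sites of the X had medians of 0.615, 0.791 and 0.871, and gene end and intergenic sites of the X 0.647, 0.771 and 0.742. Peaks of the control IgG lists gave the same order, since those on the X had medians of 0.738 (6 of 22 peaks) and 0.782 (66 of 242 peaks) against 0.405 and 0.402 elsewhere. What the control order contributes to the order of the HMR lists was not tested. The check against the caller's peak number was made within chromosomes, so it does not cover the order of the X against autosomes. Without X sites the intragenic difference from promoters was 0.143 in replicate 1, 0.0748 in replicate 2 and 0.0385 in replicate 3.

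**Figure D4:**
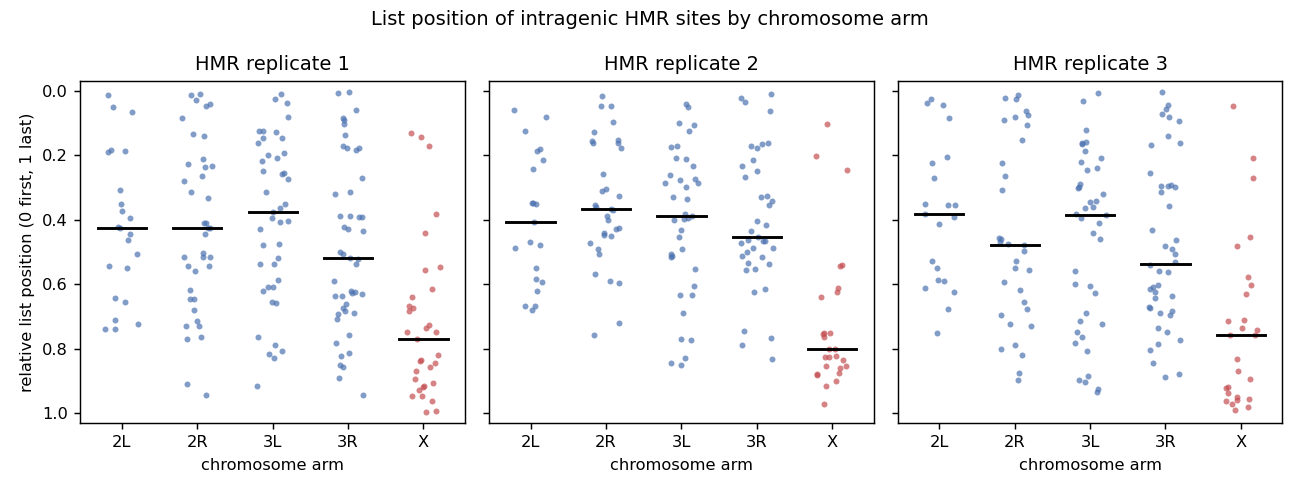
Relative list position of each intragenic HMR site (0 for the first peak, 1 for the last, axis inverted) by chromosome arm in the 3 HMR replicates, with black lines at the median of each arm and the X in red. The X medians are 0.77, 0.802 and 0.759, and a few X sites stand early.

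The earliest X sites were those of CCKLR-17D3, a cholecystokinin-like receptor gene (positions 151, 223 and 37), and mamo, a zinc finger transcription factor gene of the germline (positions 165, 95 and 164). A site in intron 3 of CG3097 stood at 196, 493 and 212. The number of sites on the X did not stand apart. The X held 33 of 200 sites (16.5%), against 15.2% of all shared sites. Per Mb it held 1.48 sites, against 1.7 on the 4 large autosomal arms, a ratio of 0.87 (95% interval 0.58 to 1.27, exact binomial test, adjusted p = 0.604). Intragenic X sites were in all 3 lists at 63.6% (21 of 33) and autosomal ones at 57.5% (96 of 167). The other kinds went the other way, with 53.5% on the X against 70.7% on autosomes for promoter sites. For gene end and intergenic sites it was 60% against 71.3%. On the X, intragenic sites were thus in all 3 lists more often than promoter sites, which was not tested. Without X sites the intragenic difference from promoters was -13.2 percentage points (Fisher's exact test, p = 0.0036).

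Of the other arms, 3R held 50 intragenic sites, 3L 47, 2R 41 and 2L 26. Intragenic sites made up 32.7%, 30.1%, 25.2% and 20.3% of the shared sites of these arms, and 1 of the 37 shared sites of chromosome 4, the 3' UTR site of sv. Few intragenic sites lay in or near heterochromatin. Chromosome U, with 3 shared sites and none of them intragenic, was counted with the Het scaffolds throughout. Chromosome 4, the Het scaffolds and the 2 Mb of each arm next to the centromere held 13 of the 200 (6.5%), against 20.8% of all shared sites, 33.7% of promoter sites (125 of 371) and 12.1% of gene end and intergenic sites. The difference from promoters was -27.2 percentage points (Fisher's exact test, adjusted p = 2.26e-13). Class 1 comprises HMR sites with HP1a next to them, and class 2 all other sites. Among class 2 sites alone the difference was -6.01 (Fisher's exact test, p = 0.0153).

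Class 1 held 6 of the 200 intragenic sites (3%), against 15.6% of all shared sites and 7 of 223 gene end and intergenic sites (3.14%, Fisher's exact test, adjusted p = 1). All 6 lay on the 2RHet scaffold or within 2 Mb of the centromere-proximal end of an arm. A site in intron 5 of 6 of l(2)41Ab, at chr2RHet:567593-567822, stood at positions 289, 175 and 349. One in intron 2 of 5 of d4, at chr2R:1148087-1148309, stood at 263, 235 and 373, and d4 also held 2 promoter sites. The site of stw, the laccase gene straw that serves in cuticle tanning, lay in the first of 7 introns at chr2R:1304004-1304216 and positions 274, 332 and 388. nAChRalpha4, a subunit gene of the nicotinic acetylcholine receptor, held a site in intron 5 of 11 at chr3L:23251711-23251927 and positions 494, 213 and 284. The sites of Scp1, a calcium-binding protein gene, and of nolo, which encodes an ADAMTS-like protein, were held by replicates 1 and 2 only, at 778 and 241 and at 625 and 315. None of the 6 was among the first 150 peaks of a list.

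Lists of genes were chosen by hand for what the genes are known to do, with earlier results of these data known. Gene length was not taken into account, so the shares below do not show that a kind of gene is enriched. Of the 17872 genes of the RefSeq table, 0.974% had an intragenic site and 1.95% a promoter site. Of 115 developmental transcription factor genes, 16 held an intragenic site (13.9%), 25 sites in all, and 5 a promoter site (4.35%). All 3 lists held 16 of these 25 sites. The earliest were those of luna, pnt, fru and mamo, and the list also holds nkd, which encodes an antagonist of Wnt signalling. Of 12 ecdysone response and nuclear receptor genes in it, a subset formed after the values were seen, 5 held an intragenic site. Among 88 signalling genes, 7 held one (7.95%), in InR, msn, Ser, Tl, S6k, Stat92E and sgg. Msn is a kinase upstream of JNK, and its site, in intron 3 of 17, stood at positions 287, 249 and 309. Tl is the Toll receptor, with a site in intron 2 of 4 at positions 496, 375 and 481. Ser is a Notch ligand, and its intron 4 site was held by replicates 1 and 2, at 600 and 365.

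Of 89 adhesion and axon guidance genes, 3 held an intragenic site (3.37%) and 4 a promoter site. These were Lac, an immunoglobulin-domain protein gene of septate junctions (positions 361, 282 and 359), Ten-m, a teneurin gene (574 and 300 in replicates 2 and 3), and the integrin gene scb (627 and 458 in replicates 1 and 2). Of 68 genes of ion channels, receptors and related signalling, 3 held one (4.41%), and these were nAChRalpha4, dnc and mAChR-A, a muscarinic acetylcholine receptor gene (652 and 431 in replicates 2 and 3). None of 24 genes of insulator proteins and HMR partners held an intragenic site, and 1 had a promoter site. These shares were not tested against the background.

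Most of the 179 genes held no other shared HMR site at a promoter or gene end. A promoter site was present in 9 of the 179 genes, ATP8B, CG8034, cher, d4, mamo, scb, toc, ush and the transcript NM_080048, from 0.792 kb (scb) to 92.6 kb (mamo) away. Over all genes of the RefSeq table, 348 of 17872 had a promoter site (1.95%), and no test was made against this share. A gene end site was present in 7 of the 179, DAAM, GEFmeso, PH4alphaEFB, RYa-R, bun, dnc and ush. The share of all genes with a gene end site was not counted. ush was the only gene with all 3 kinds. The nearest other shared site of any kind lay a median of 43.6 kb from an intragenic site, against 31 kb for promoter sites and 43.4 kb for gene end and intergenic sites. Within 10 kb, 39 of 200 had a neighbour (19.5%), against 21.9% of all shared sites, 25.6% of promoter sites and 17.9% of gene end and intergenic sites. This neighbour was intragenic for 25 of the 39, a promoter site for 11 and a gene end or intergenic site for 3.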

How the data were processed

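Peaks of 5 ChIP-Seq samples of untreated S2-DRSC cells were analysed, 3 with anti-HMR and 2 with anti-FLAG as control IgG, grouped by antibody, treatment and replicate number in the labels. The other samples of the series were not used here. The authors aligned reads to dm3 with Bowtie2 2.2.6 and filtered for unique ones with SAMtools 1.2. Peak calling with HOMER 4.8 was done for each sample against input, without pooling replicates. FastQC 11.5 and MACS2 2.1.1 are named in the submitters' processing notes too. Each deposited list gives ordered positions, and the score that the authors deposited is 1 for every peak, so no peak height was analysed.

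Peaks were converted to 1-based positions and joined into a site where any 2 shared 1 bp or more. Sites in at least 2 lists were matched to the published annotation and class of each site, which has the same end. Symbols came from RefSeq's Release 6 gene table, and none of its coordinates were used. Shares were compared with Fisher's exact test and 95% Wilson intervals, list positions with the Wilcoxon rank-sum test, and densities with an exact binomial test, all two-sided. p-values named as adjusted were adjusted by the Benjamini-Hochberg method over 15 tests, and values of alternative settings are not adjusted. The 15 include the tests of X against autosomes, which were added after seeing the data. The threshold was 0.05. Intervals and limits for a count of 0, set at 3 counts, cover counting error only. Python 3.11.15, NumPy 2.4.6, SciPy 1.17.1 and Matplotlib 3.10.9 were used. The merging and the tests were tested on simulated data.

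The members, gene lists and tests were chosen with earlier results of these data known. Named are genes with 2 or more intragenic sites, the 10 earliest sites in all 3 lists, class 1 sites, sites outside introns, and the genes of the lists that held a site, the 4 earliest for the transcription factors. Of the genes with several sites, 1 is counted but not reported here. Genes named for their place on the X, for other sites of the gene or for groups formed afterwards were chosen after their values were seen.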

Additional observations from a re-analysis of the deposited data

How the results depend on the processing

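Of 76 alternatives, 62 left direction and side of the threshold as they were, or moved a count by no more than 1.5 times. The side of the threshold was read from p-values before adjustment, by which the difference of replicate 3 from gene ends and intergenic sites passed (rank-sum p = 0.0398, n = 168 and n = 208) although its adjusted p of 0.0596 did not. Requiring all 3 lists left 117 intragenic sites and 9 genes with several, and the first 50% of each list left 84 sites. Leaving out 1 replicate gave 128 to 156 sites and 10 to 15 such genes, lowest without replicate 1. A control peak within 1000 bp was found for 1 site. In the share of sites in all 3 lists, the difference from promoters became -1.34 points without chromosome 4, Het and proximal sites and 3.07 with the first 50% of each list. That from gene ends and intergenic sites became -7.5 without those sites, -9.11 with an overlap of at least 100 bp and -9.28 with introns only. The later position than promoters in replicate 2 became 0.0305 without those sites and 0.0427 with class 2 sites only. Against gene ends and intergenic sites, replicate 3 gave 0.0833 with introns only. The cause of these changes was not tested. Leaving out X sites, class 2 sites alone and the comparison of X with autosomes were added after seeing the data. No paired analysis was possible because intragenic sites were compared with other sites of the same lists, and HMR with control IgG by overlap of positions alone, so no test compared groups of samples. Replicate 1 had the fewest tags and the lowest tag threshold, and a site missing from a list may lie under that list's tag threshold of 30 or 41.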

Other observations

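Beyond the lists above, 3 groups of genes were formed after the values were seen and are given as descriptions, without a test. They were picked from genes with an intragenic site and need not hold every such gene of their kind. Genes of these kinds without a site were not counted. Of all intragenic sites, 58.5% were in all 3 lists. The group of sugar and central metabolism had 7 picked genes with 1 site each, and 6 of the 7 sites were in all 3 lists. Besides Glut1 and Treh these were Pepck2, a phosphoenolpyruvate carboxykinase gene (positions 155, 161 and 84), the malic enzyme gene Men-b (370, 194 and 201), the glucose-6-phosphate dehydrogenase gene Zw on the X (768, 877 and 556), Prps (930, 764 and 722) and the arginine kinase gene Argk1, held by replicates 1 and 3 (677 and 557). The group thus ran from the first peaks of the lists to near their ends, with mean relative positions of 0.0193 to 0.859.

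Receptors of neuropeptides and acetylcholine gave 6 genes with 6 sites, 4 of them in all 3 lists. ETHR, the receptor of the ecdysis-triggering hormone, had a site at positions 452, 147 and 235, and the diuretic hormone receptor gene Dh44-R2 one at 491, 406 and 529. RYa-R, a receptor of RYamide peptides, was held by replicates 1 and 3, at 577 and 397. Cell junction and polarity genes gave 7 genes with 9 sites, 5 in all 3 lists, among them Ssk, a smooth septate junction gene (362, 259 and 345), and aPKC and kst, both held by replicates 1 and 3 (472 and 616, and 468 and 584).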
